A study of Mus musculus with 25 samples.

Results

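The miR-181 family was followed in small RNA libraries from mouse brain through its 6 precursor genes, mmu-mir-181a-1, mmu-mir-181a-2, mmu-mir-181b-1, mmu-mir-181b-2, mmu-mir-181c and mmu-mir-181d, written below without the species prefix. They were chosen by name as the 6 rows of the deposited count table that carry these names, out of 1193 precursors in all. The libraries came from a brain hemisphere of 25 male C57BL/6 mice, 5 each at 2, 9, 15, 24 and 30 months of age. No treatment or engineered allele is given in the labels, and age is the label that separates the groups. The 2-month mice serve as the young reference. Each library carries its own animal number in its title, so the spread within an age is a spread between libraries of differently numbered animals. Every value is from bulk tissue, in which fewer cells of a type and less RNA per cell cannot be told apart.

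A microRNA gene is transcribed as a long primary RNA from which a hairpin, the precursor, is cut. Both arms of the hairpin can give a mature miRNA, and the arm that is loaded onto an Argonaute protein guides it to messenger RNAs by pairing of its seed, bases 2 to 8. The miR-181 genes lie as pairs, an a with a b at separate places in the genome and c beside d. The family is best known for its roles in lymphocyte development and is also abundant in brain, where it has been studied in neurons and astrocytes and in the response to ischaemia.

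The mature sequences of the 5′ arms show what the members share. They are given 5′ to 3′ from RefSeq (GRCm38.p6), with the seed in capitals, because the same seed makes these miRNAs 1 family.
miR-181a-5p: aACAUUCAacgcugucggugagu
miR-181b-5p: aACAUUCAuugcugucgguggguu
miR-181c-5p: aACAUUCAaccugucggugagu
miR-181d-5p: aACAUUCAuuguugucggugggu
The seed ACAUUCA was carried by these 4 of the 1679 mature mouse miRNAs in the RefSeq table and by no other. Differences lie outside the seed. With positions counted from 1 at the 5′ end of the first-named miRNA, miR-181a-5p and miR-181b-5p differed by A9U, C10U and A21G. From miR-181b-5p to miR-181d-5p there was 1 substitution, C12U. Between miR-181a-5p and miR-181c-5p there was no substitution but a gap of 1 base within the aligned sequence. How far the authors' counting kept such near-identical miRNAs apart was not tested.

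The 4 hairpins of miR-181a and miR-181b are shown because each mature miRNA of the 5′ arm comes from copies on 2 chromosomes. Capitals mark both mature arms, the 5′ arm first.
mir-181a-1: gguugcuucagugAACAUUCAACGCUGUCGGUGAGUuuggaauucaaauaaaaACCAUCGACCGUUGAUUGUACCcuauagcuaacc
mir-181a-2: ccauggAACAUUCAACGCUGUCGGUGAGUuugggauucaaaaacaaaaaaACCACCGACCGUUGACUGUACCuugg
mir-181b-1: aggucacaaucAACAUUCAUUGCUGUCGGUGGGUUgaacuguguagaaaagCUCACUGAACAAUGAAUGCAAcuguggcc
mir-181b-2: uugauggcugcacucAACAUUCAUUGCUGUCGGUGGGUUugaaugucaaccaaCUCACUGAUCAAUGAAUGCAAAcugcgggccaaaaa
The 5′ arm of mir-181a-1 is identical to that of mir-181a-2, and likewise for mir-181b-1 and mir-181b-2, so a read of this arm cannot be assigned to 1 copy. The 3′ arms differ between copies: miR-181a-1-3p is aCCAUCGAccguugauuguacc and miR-181a-2-3p is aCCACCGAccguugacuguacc, here with bases 2 to 8 in capitals.

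Positions are from GENCODE M21 on the GRCm38 build. The hairpins mir-181a-1 (chr1:137966455-137966541) and mir-181b-1 (chr1:137966639-137966718) lie on the plus strand with 97 bases between them. Both fall in an exon of the long noncoding RNA A430106G13Rik on the same strand. On the plus strand of chromosome 2, mir-181a-2 (chr2:38852735-38852810) and mir-181b-2 (chr2:38853830-38853918) are separated by 1019 bases. They lie within an intron of Nr6a1, a nuclear receptor gene read from the minus strand, and mir-181b-2 also overlaps an exon of the minus-strand gene Gm44144. The last pair, mir-181c (chr8:84178873-84178961) and mir-181d (chr8:84178716-84178787), lies on the minus strand with 85 bases between the hairpins, within an intron of Nanos3 on that strand.

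Counts over all 1193 precursors totalled between 3.78 and 9.52 M (mega-reads) per library, with a median of 5.61 M. Levels are given as counts per mega-read of library (CPM) after TMM scaling, edgeR's trimmed-mean correction of library size, and a difference between ages was called when its adjusted p from edgeR's quasi-likelihood test was under 0.05 over the 425 precursors tested. All 6 members passed the filter on low counts, and the lowest count of any member in any library was 3538. The column names give a sequencing lane for each library, and each age is spread over 5 of the 6 lanes, with a different lane lacking at each. Lane 3, with 1 library at each age, stood apart for mir-181c: its 5 libraries reached 11533 to 13125 CPM, and the 20 from other lanes 12926 to 15975 CPM. The labels give brain as the tissue: all 12 miRNAs listed as neuronal markers were detected, with a summed level of 71770.3 to 93567 CPM.

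The family made up 11.66% to 14.01% of each library's precursor counts, with a mean of 12.81% ± 0.607 (SD, n = 25). Within the family the miR-181a copies held 84.92% of the counts on average, mir-181c 10.7%, the miR-181b copies 3.573% and mir-181d 0.8084%. The members therefore differ widely in abundance: mir-181a-1 ranked 3 and mir-181a-2 ranked 4 among the 425 tested precursors, mir-181c 15, mir-181b-2 67, mir-181b-1 69 and mir-181d 102. These ranks compare counts per hairpin, and miRNAs can differ in how well the library adapters join to them.

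The make-up of the family by age is given as a description. The miR-181b copies held 3.28% ± 0.162 of the family's counts at 2 months, 3.599% ± 0.177 at 24 months and 4.07% ± 0.240 at 30 months (SD, n = 5). mir-181d held 0.909% ± 0.0433 at 2 months and 0.741% ± 0.0460 at 30 months (SD, n = 5), and every 30-month library, at most 0.8095%, lay below every 2-month library, at least 0.8471%. For mir-181c the shares were 11.47% ± 1.05 and 9.85% ± 0.533 (SD, n = 5), with medians of 11.53% and 9.992% and ranges that overlapped. The miR-181a share was 84.34% ± 0.899 at 2 months and 85.35% ± 0.349 at 30 months (SD, n = 5).

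The same order held in 25 of 25 libraries for each neighbouring pair: mir-181a-1, mir-181a-2, mir-181c, mir-181b-2, mir-181b-1, mir-181d. The ranges of the neighbours mir-181a-1 and mir-181a-2 overlapped over the libraries, as did those of mir-181b-2 and mir-181b-1. At the other 3 steps they did not: the level of mir-181a-2 was 3.22 to 4.74 times that of mir-181c, and mir-181c was 4.12 to 8.41 times mir-181b-2. The last step, from mir-181b-1 to mir-181d, was 1.74 to 2.85 times.

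The counts of the copies did not give separate readings of the chromosome 1 and chromosome 2 genes. In each library mir-181a-1 held between 50.12% and 50.40% of the counts of both miR-181a copies. The share varied with an SD of 0.0693 percentage points over the 25 libraries, where binomial counting error would give 0.0635. For mir-181b-1 the share was 48.72% to 49.89%, with an SD of 0.301 points against 0.315 from counting error. So the copies divided their reads close to evenly in each library, with mir-181a-1 above 50% in 25 of 25 libraries and mir-181b-1 in 0 of 25. Results for the copies of 1 miRNA are thus near repeats of 1 measurement, and which gene a change came from cannot be told apart.

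**Figure D1:**
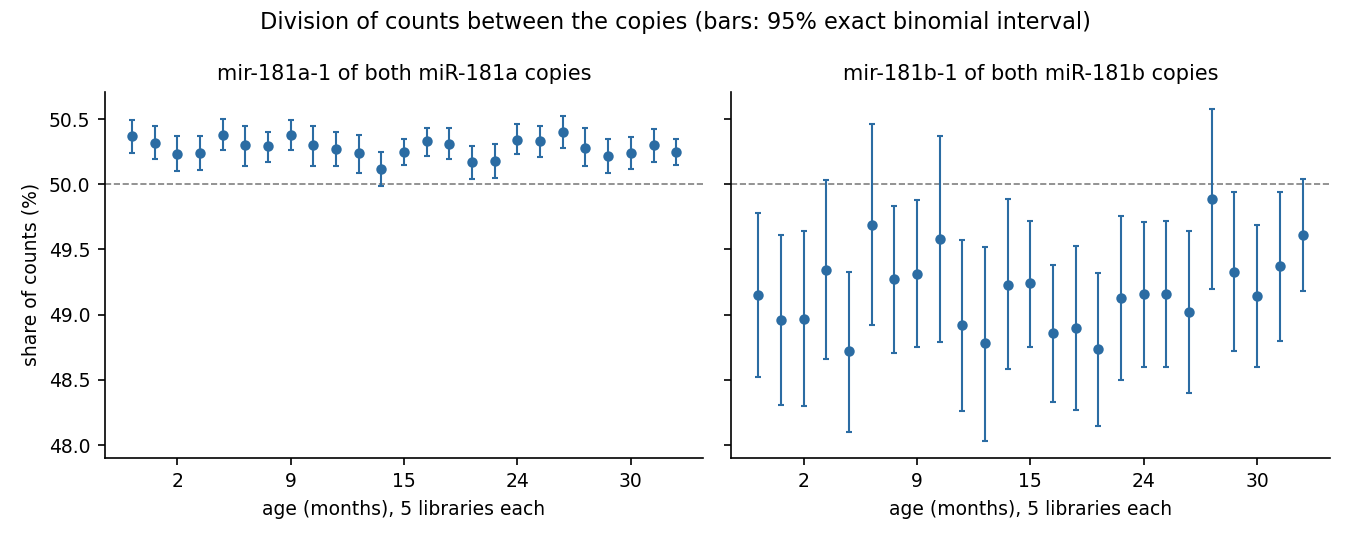
Share of the counts of both miR-181a copies held by mir-181a-1 (left) and of both miR-181b copies held by mir-181b-1 (right), in percent, for the 25 libraries ordered by age in months. Points are libraries and bars are exact binomial (Clopper-Pearson) 95% intervals, which cover counting error only; the shares stay between 50.12% and 50.40% on the left and between 48.72% and 49.89% on the right.

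Between 2 and 30 months the members moved in different directions. Both miR-181b copies rose, 1.29-fold and 1.27-fold, mir-181c and mir-181d fell, and the miR-181a copies, which hold most of the counts, did not pass the test. This made 4 of 6 members called, 2 higher and 2 lower, where 36.9% of all 425 tested precursors were called (81 higher and 76 lower). The 2 higher are the miR-181b copies, near repeats of 1 measurement. The median log2 fold change of the members was 0.06, beside 0.05 over all tested precursors. The family's summed level was 130079.6 ± 8640.1 CPM at 2 months and 133957 ± 5756 CPM at 30 months (SD, n = 5). Its log2 fold change was 0.05 ± 0.05 (SE).

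**Figure D2:**
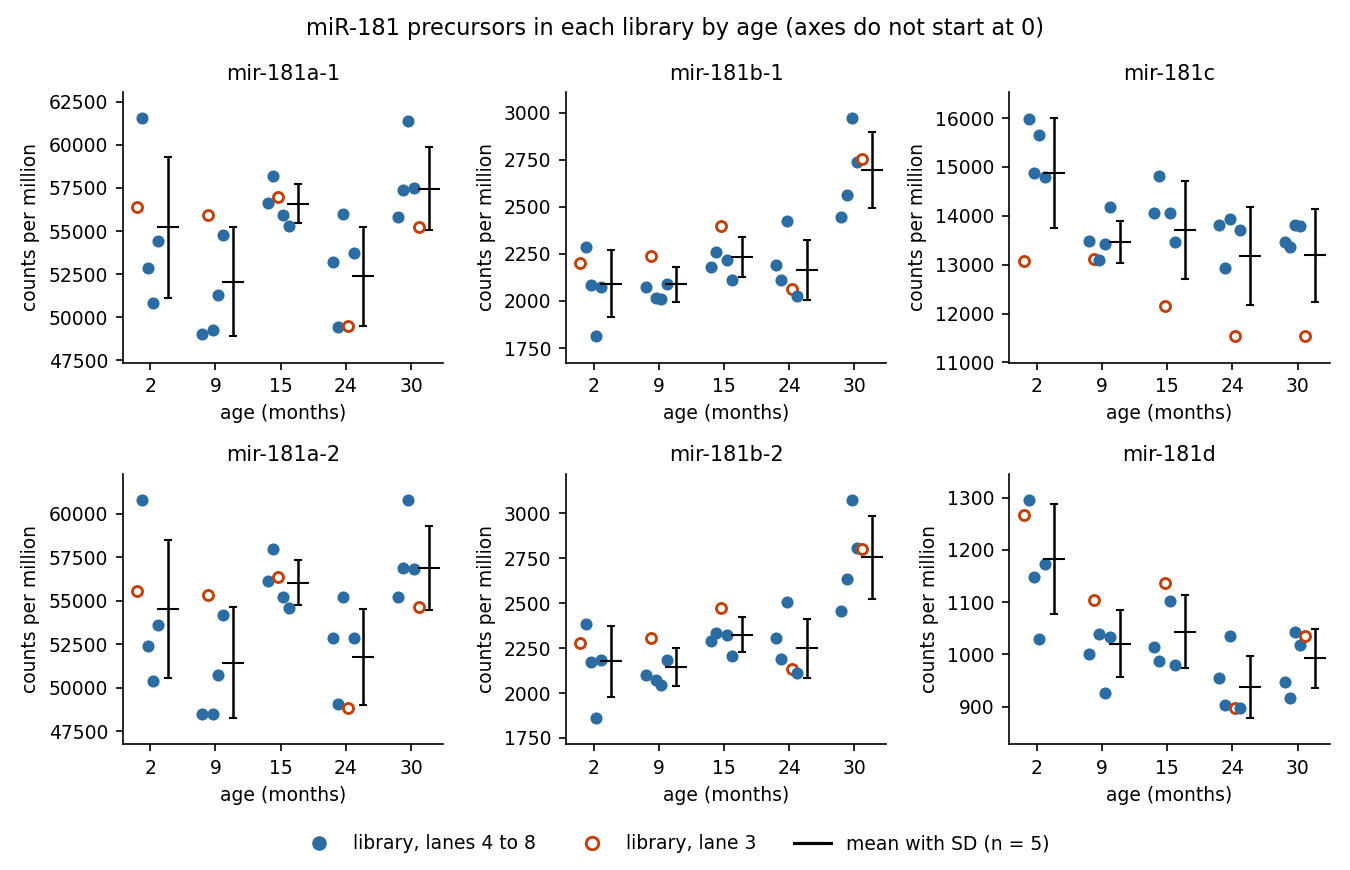
Level of each member in TMM-scaled CPM against age in months. Points are libraries (open circles are lane 3) and bars are the mean and SD of 5 libraries; mir-181b-1 and mir-181b-2 at 30 months lie above every 2-month library, and the lane 3 libraries are the lowest for mir-181c at 4 of 5 ages.

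miR-181a, whose precursors held most of the family's counts, is the member best known for setting the sensitivity of developing T cells. The 5 libraries at 2 months gave 56402, 61550.4, 52856, 50839 and 54437 CPM for mir-181a-1. At 30 months they gave 55811, 57407, 61370.0, 57489 and 55206 CPM, between the lowest and the highest 2-month value. The log2 fold change was 0.06 ± 0.05 (SE, adjusted p = 0.414). For mir-181a-2 the means were 54536 ± 3967 CPM at 2 months and 56867 ± 2404 CPM at 30 months (SD, n = 5), with 1 of 5 libraries at 30 months above all at 2 months. The change between them was 0.06 ± 0.05 (SE) on the log2 scale, with an adjusted p = 0.394. The sign of these near-zero values turned under upper-quartile scaling, to -0.01 for each copy. In the 3 ages between, mir-181a-1 averaged 52059 ± 3172 CPM at 9 months, 56596 ± 1117 CPM at 15 months and 52363 ± 2857 CPM at 24 months (SD, n = 5), a course without a steady direction.

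miR-181b shares its hairpin clusters with miR-181a. For mir-181b-1 the 2-month libraries gave 2204, 2287, 2087, 1812 and 2074 CPM, and the 30-month libraries 2445, 2564, 2971, 2738 and 2757 CPM. All 5 libraries at 30 months lay above all 5 at 2 months. The difference was called: mir-181b-1 rose by 0.36 ± 0.06 on the log2 scale (SE, adjusted p = 4.87e-05), or 1.29-fold. For mir-181b-2 the libraries gave 2280.2, 2384, 2175, 1860.4 and 2183 CPM at 2 months and 2456, 2634, 3074, 2807 and 2799.9 CPM at 30 months. Again no library overlapped, and the log2 fold change was 0.34 ± 0.06 (SE, adjusted p = 0.000164), or 1.27-fold. With the copies merged into 1 row before the fit, the log2 fold change of miR-181b was 0.32 ± 0.06 (SE, adjusted p = 0.000101) and that of miR-181a 0.03 ± 0.05 (SE, adjusted p = 0.654).

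Most of the rise of miR-181b fell in the last interval. mir-181b-1 averaged 2088 ± 92.8 CPM at 9 months, 2235 ± 107 CPM at 15 months and 2165 ± 158 CPM at 24 months, and then 2695 ± 201 CPM at 30 months (SD, n = 5). For mir-181b-2 the means from 9 to 24 months were 2143 ± 106, 2325 ± 96.1 and 2249.5 ± 164 CPM, and 2754 ± 229.7 CPM at 30 months (SD, n = 5). The 5 libraries of mir-181b-1 at 24 months gave 2193, 2113, 2426, 2064 and 2029 CPM, all below the lowest 30-month value of 2445 CPM. Between 24 and 30 months mir-181b-1 rose by 0.32 ± 0.06 on the log2 scale (SE, adjusted p = 0.00164) with no overlap of libraries, and mir-181b-2 by 0.29 ± 0.06 (SE, adjusted p = 0.00488) with 4 of 5 libraries above all at 24 months. These were the 2 of 6 members called in this interval, where 8.71% of all tested precursors were called. As near repeats they count as 1 measurement: with the copies merged, miR-181b rose by 0.28 ± 0.06 (SE, adjusted p = 0.00294). The miR-181a copies had log2 fold changes of 0.13 ± 0.05 and 0.14 ± 0.05 (SE, adjusted p = 0.116 and 0.111). A departure from a straight line over the 5 ages was called for 1 of 6 members, mir-181b-1 (adjusted p = 0.0389), where 7.06% of all were. For mir-181b-2 it missed the threshold (adjusted p = 0.0752), as it did for the miR-181b copies merged (adjusted p = 0.0535). No member was called without any 1 of 24 months replicates 2, 4 and 5 or of 30 months replicates 3, 4 and 5.

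The level of oligodendrocyte marker miRNAs was highest at 30 months, as was miR-181b. The median marker sum was 2637 CPM at 2 months and 3183 CPM at 24 months. For the miR-181b copies summed these medians were 4263 and 4301 CPM. The 3 listed markers were mir-338 and both mir-219a precursors, and none of them was at 0. Their summed level was 2486.5 to 2913 CPM at 2 months, 2869.8 to 3405 CPM at 24 months and 3612 to 4554 CPM at 30 months. Of these 3, 3 were called higher and 0 lower between 2 and 30 months, where 36.9% of all tested precursors were called. Their median log2 fold change was 0.715. For the listed choroid plexus and ciliated markers the median sum was 8478 CPM at 2 months and 9491 CPM at 30 months. It was highest at 24 months, at 9923 CPM. Of these 5, 2 were called higher and 0 lower between 2 and 30 months, where 36.9% of all tested precursors were called. The part of either list in the rise of miR-181b was not tested. The listed lymphocyte and myeloid markers, cells in which miR-181 is well studied, summed to 1092.0 to 1248 CPM at 2 months and 921.3 to 1091 CPM at 30 months over 4 markers, also with none at 0. Of these 4, 2 were called higher and 1, the abundant mir-150, lower between 2 and 30 months, with a median log2 fold change of 0.26, so the sum and the median differ in sign.

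mir-181c and mir-181d, the pair in the Nanos3 intron, went the other way. For mir-181c the 2-month libraries gave 13084, 15975, 14866, 15655 and 14795 CPM, and the 30-month libraries 13455, 13368, 13822, 13784 and 11533 CPM. The lowest value at each of these ages came from lane 3, and the groups overlapped: 1 of 5 libraries at 30 months lay below all at 2 months. The difference was called, with a log2 value of -0.17 ± 0.06 (SE, adjusted p = 0.0329), or 0.887-fold. Without a lane term it stood close to the threshold. Leaving out 2 months replicate 4 gave an adjusted p of 0.0724, 2 months replicate 5 gave 0.0602 and 30 months replicate 5 gave 0.0662, and testing without the filter on low counts gave 0.0852. With lane as a covariate the log2 fold change was -0.18 (adjusted p = 0.000802), and without the 5 lane 3 libraries -0.20 (adjusted p = 0.000229).

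mir-181d, the least abundant member, gave 1266, 1296, 1148, 1029.7 and 1174 CPM at 2 months and 947.7, 915.8, 1043, 1019 and 1036 CPM at 30 months. The groups overlapped through 1 young library, with 3 of 5 libraries at 30 months below all at 2 months. The log2 fold change was -0.25 ± 0.06 (SE, adjusted p = 0.00298), or 0.839-fold, and stayed called with each of the 25 libraries left out in turn and in the 12 other alternatives.

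The lower level of mir-181d was already present at 9 months. Its mean was 1183 ± 106 CPM at 2 months, 1021 ± 64.7 CPM at 9 months, 1044 ± 70.8 CPM at 15 months, 937.6 ± 59.8 CPM at 24 months and 992.2 ± 57.0 CPM at 30 months (SD, n = 5). Between 2 and 9 months it was the 1 of 6 members called, at -0.21 ± 0.06 on the log2 scale (SE, adjusted p = 0.0487). The 9-month libraries gave 1000.5, 1104, 1039, 926.7 and 1033 CPM, with 2 of 5 below all at 2 months. In this interval 7.76% of all tested precursors were called. The call for mir-181d was at the edge of the threshold. It was lost without any 1 of 6 libraries, namely 2 months replicates 1, 2 and 5, 9 months replicates 1 and 4, and 24 months replicate 4, with adjusted p up to 0.0757. For mir-181c the same interval gave -0.14 ± 0.06 (SE, adjusted p = 0.175), from a mean of 14875 ± 1122 CPM to 13462 ± 432 CPM (SD, n = 5). With lane as a covariate this difference was -0.15 (adjusted p = 0.0152), and without lane 3 -0.17 (adjusted p = 0.00781), both past the threshold. The means of mir-181c at 15, 24 and 30 months were 13712 ± 996, 13184 ± 998 and 13193 ± 949 CPM (SD, n = 5).

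In the middle of adult life no member was called by edgeR. Between 9 and 15 months the count was 0 of 6, with 0% of all tested precursors called and 27 of the 425 at an unadjusted p under 0.05. Among these 27 were 2 members, both copies of miR-181a and so near repeats of 1 measurement (unadjusted p = 0.0294 and 0.0254, adjusted p = 0.682 for each). Between 15 and 24 months it was 0 of 6, with 0.235% of all called and 46 of the 425 at an unadjusted p under 0.05. Here 3 members had an unadjusted p under 0.05: the miR-181a copies (0.0413 and 0.0376) and mir-181d (0.0226). DESeq2 also called 0 members in either interval, and 0 precursors in all between 9 and 15 months.

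**Figure D3:**
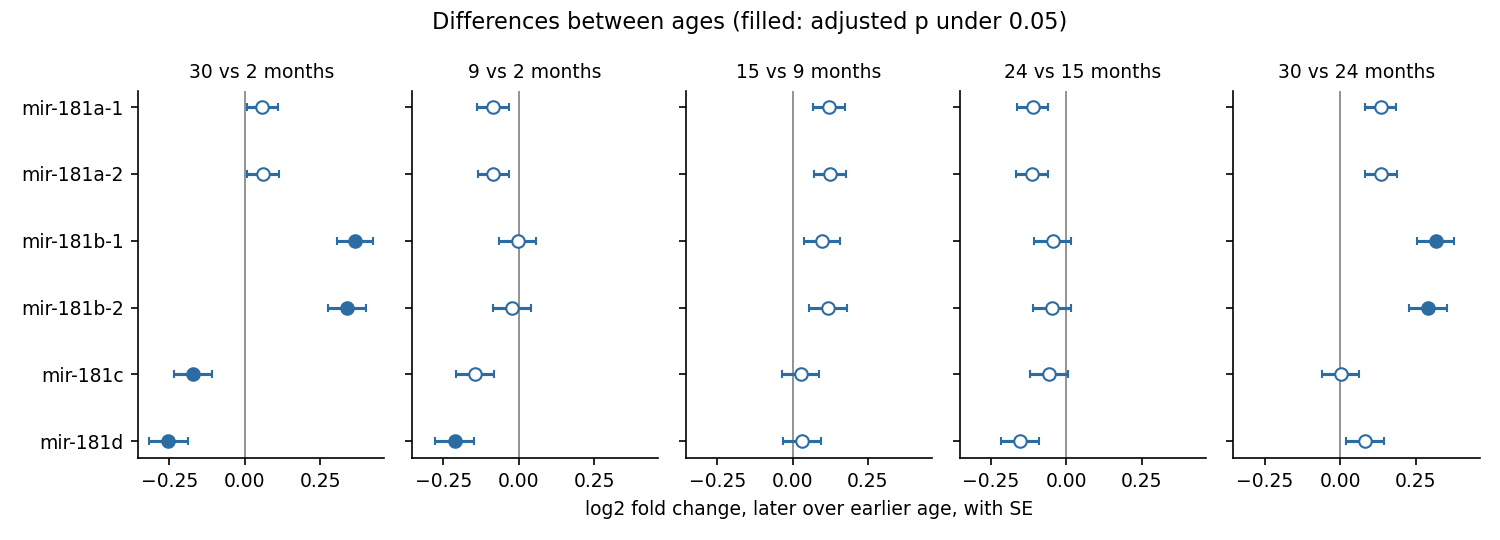
Log2 fold change of the 6 members, later over earlier age, for 30 against 2 months and for the 4 pairs of adjacent ages; bars are standard errors and filled points have an adjusted p under 0.05. The miR-181b copies are filled at 30 against 2 and 30 against 24 months, mir-181d at 30 against 2 and 9 against 2 months, and mir-181c at 30 against 2 months.

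Over all 25 libraries a difference among the 5 ages was called for 3 of 6 members, where 32.7% of all tested precursors were called. These were mir-181b-1 (adjusted p = 0.000163), its near repeat mir-181b-2 (adjusted p = 0.000409) and mir-181d (adjusted p = 0.00254), while mir-181c had an adjusted p of 0.125. With lane as a covariate, without lane 3 or under upper-quartile scaling 4 members were called, mir-181c among them (adjusted p = 0.00269, 0.00144 and 0.0266). A straight-line fit on age called 4 of 6 members, again with the miR-181b copies as near repeats, where 35.5% of all were called. Per 12 months, mir-181b-1 rose by 0.13 ± 0.03 and mir-181b-2 by 0.13 ± 0.03 on the log2 scale (SE, adjusted p = 0.000801 and 0.00123). In the same unit mir-181d fell by 0.11 ± 0.03 and mir-181c fell by 0.06 ± 0.02 (SE, adjusted p = 0.00256 and 0.0381).

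Because the members are read in the same library, ratios between them do not depend on how libraries are scaled. In each library the miR-181b copies were set against the miR-181a copies that share their clusters. The 2-month libraries held 4.004, 3.819, 4.051, 3.629 and 3.939 miR-181b counts per 100 miR-181a counts, and the 30-month libraries 4.415, 4.547, 4.948, 4.851 and 5.058. No library of the older group reached down to the younger one. The mean rose from 3.89 ± 0.169 to 4.76 ± 0.272 (SD, n = 5), by 0.292 on the log2 scale (exact permutation test, two-sided, p = 0.00794, the smallest the design allows; adjusted over 3 ratios, p = 0.0238). So the rise of miR-181b differed from the change of miR-181a in the same libraries.

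The Nanos3 pair was then set against the 4 other precursors. This ratio is mostly mir-181c against miR-181a, since mir-181d held 0.81% and the miR-181b copies 3.57% of the family's counts on average. For mir-181c and mir-181d summed the ratio was 12.32, 13.6, 14.63, 15.91 and 14.22 counts per 100 counts of miR-181a and miR-181b at 2 months, and 12.43, 11.95, 11.59, 12.35 and 10.89 at 30 months. The ages overlapped through the lane 3 library at 2 months. The log2 ratio was lower at 30 months by a difference of -0.252 (exact permutation test, two-sided, p = 0.0238, adjusted p = 0.0357). Leaving out a library ended this call in 7 of 10 cases, each at an adjusted p of 0.0714: 2 months replicates 2 to 5 and 30 months replicates 2, 3 and 5. Within the pair, mir-181d per 100 mir-181c counts averaged 8.01 ± 1.11 at 2 months and 7.56 ± 0.840 at 30 months (SD, n = 5), a log2 difference of -0.0777 that did not pass (exact permutation test, two-sided, p = 0.492, adjusted p = 0.492).

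**Figure D4:**
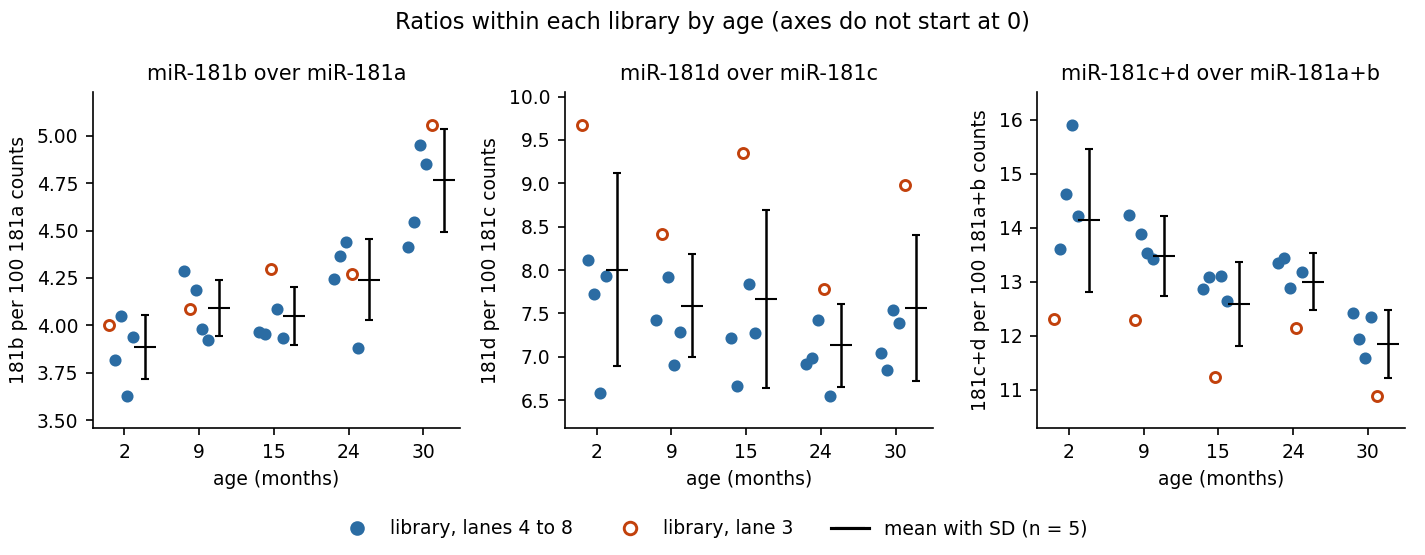
Ratios of member counts within each library, in counts per 100 counts of the denominator, against age in months; points are libraries (open circles are lane 3) and bars are the mean and SD of 5 libraries. miR-181b over miR-181a rises from a mean of 3.89 to 4.76 between 2 and 30 months, and the lane 3 library is the highest at all 5 ages for mir-181d over mir-181c and the lowest at all 5 for the pair against the other members.

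Sequencing lane touched mir-181c more than any other member. Lane taken alone accounted for 49.9% of its variance over the 25 libraries and age taken alone for 33.6%. These shares were 13.7% and 71.2% for mir-181b-1 and 13.9% and 60.1% for mir-181d. They are not a split of the variance, since each age lacks 1 of the 6 lanes, and any grouping takes some share by chance. For the ratio of mir-181d to mir-181c the lane share was 65.3%. Of the 6 lanes, 4 (lanes 3, 5, 6 and 7) held both a 2-month and a 30-month library. The log2 difference of mir-181c within these lanes was -0.182, -0.144, -0.228 and -0.0982, and that of mir-181d -0.289, -0.276, -0.169 and -0.171, lower in 4 of 4 lanes each. For mir-181b-1 the values were 0.323, 0.228, 0.501 and 0.518, higher in 4 of 4, as were those of mir-181b-2. The ratio of miR-181b to miR-181a was higher at 30 months in 4 of 4 lanes, by 0.337, 0.124, 0.325 and 0.329 on the log2 scale. mir-181a-1 was higher at 30 months in 3 of 4 lanes.

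**Figure D5:**
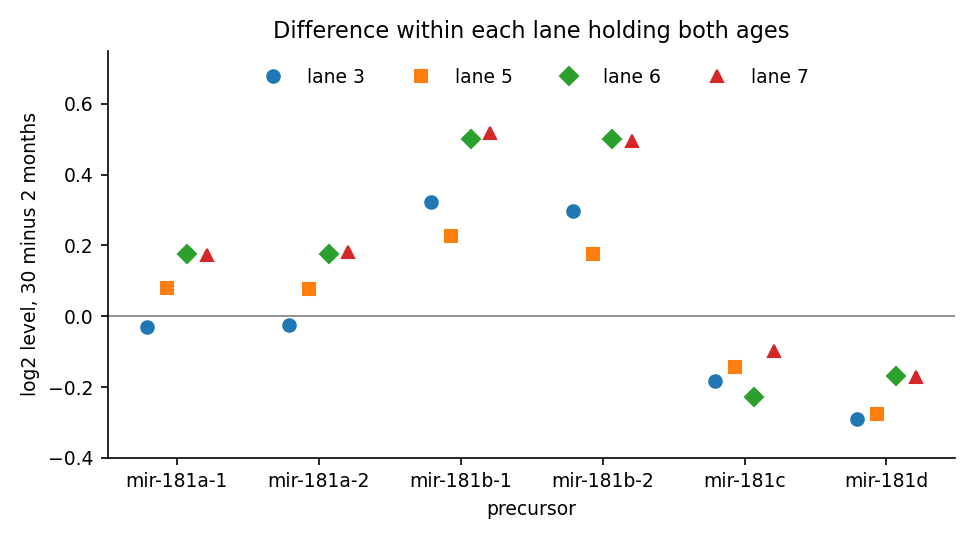
Log2 level at 30 months minus that at 2 months for each member, within each of the 4 lanes that held a library of both ages (1 library per age and lane, so no error bar). All 4 lanes lie above 0 for both miR-181b copies and below 0 for mir-181c and mir-181d, while the miR-181a copies have lane 3 just below 0.

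Correlations of log2 levels across the 25 libraries are given as descriptions, from libraries that share 6 lanes and 5 ages. Pearson's r was 0.703 between miR-181a and miR-181b, 0.345 between mir-181c and mir-181d, and -0.244 between miR-181b and mir-181c. After each lane's mean was subtracted, r between mir-181c and mir-181d was 0.775 and that between miR-181a and miR-181b 0.721.

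Among the 319 other precursors that averaged 10 CPM or more, the closest companions of each form are named. One of them, mir-1843a, was shared by miR-181a and miR-181b. For miR-181b these were mir-219a-1 (r = 0.828), mir-219a-2 (r = 0.821), both known from myelinating oligodendrocytes, and mir-1843a (r = 0.814). For mir-181d they were mir-128-1 (r = 0.813), mir-186 (r = 0.80) and mir-128-2 (r = 0.786). miR-128 is a brain-enriched neuronal miRNA. The closest to mir-181c were mir-99b (r = 0.802), mir-532 (r = 0.767) and mir-194-2 (r = 0.714). They ranked 17, 44 and 37 once lane means were subtracted, with r of 0.705, 0.521 and 0.579. For miR-181a the closest were mir-222 and mir-1843a (r = 0.594 each) and mir-107 (r = 0.576).

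Between 2 and 30 months the companions of miR-181b were called: mir-219a-1 rose by 1.58 ± 0.12 and mir-219a-2 by 0.71 ± 0.07 on the log2 scale (SE, adjusted p = 1.29e-09 and 3.88e-08). Those of mir-181d were called lower, mir-128-1 at -0.37 ± 0.09 and mir-186 at -0.33 ± 0.06 (SE, adjusted p = 0.00301 and 0.000164). Companions were chosen for following the members over these same libraries, so such changes were partly built into the choice. For mir-181c, mir-99b and mir-194-2 were called lower and mir-532 was not called (adjusted p = 0.591). For miR-181a, mir-1843a was called higher, and mir-222 and mir-107 were not called (adjusted p = 0.316 and 0.0617). The summed level of the 12 neuronal marker miRNAs, which include both mir-128 precursors, was 83049 to 93567 CPM at 2 months and 74597 to 92151 CPM at 30 months, overlapping. Of the 12, 6 were called lower and 0 higher by edgeR, none of them higher at an unadjusted p under 0.05 either, where 36.9% of all tested precursors were called. Some of the 12 are copies of 1 miRNA: the 6 lower were both mir-128 and both mir-138 precursors, mir-137 and mir-153. The mir-9 and mir-124 precursors, also copies, had log2 fold changes of 0.08 to 0.10 and were not called. None of the 12 was at 0, and their part in the lower level of mir-181c and mir-181d was not tested.

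Other lists place the members beside other miRNAs. The chromosome 8 neighbours mir-23a, mir-27a and mir-24-2, which form a cluster on the opposite strand, had 0 of 3 called by edgeR between 2 and 30 months, where 36.9% of all 425 tested precursors were called, 81 higher and 76 lower, with a median log2 fold change of 0.10. The nearest to the threshold was mir-24-2, at 0.18 ± 0.07 (SE, unadjusted p = 0.0224, adjusted p = 0.0579), the 1 of 3 with an unadjusted p under 0.05. In the list of neuronal and synaptic miRNAs, which holds copies of some miRNAs, 0 of 17 were higher, also at an unadjusted p under 0.05. In this list 8 were lower, with a median of 0.08 over the 17. The smallest p-values belonged to the activity-regulated mir-212, which fell by 0.48 ± 0.06, and mir-132, which fell by 0.34 ± 0.06, and to mir-137, which fell by 0.23 ± 0.06 (SE, adjusted p = 3.9e-06, 9.77e-05 and 0.00256). Among 6 lymphocyte and myeloid miRNAs 3 were higher and 1 lower, with a median of 0.26. The inflammation-induced mir-146a rose by 0.99 ± 0.13 and mir-155 by 1.39 ± 0.26, while the lymphocyte miRNA mir-150 fell by 0.50 ± 0.07 (SE, adjusted p = 3.9e-06, 0.000225 and 1.37e-05).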

How the data were processed

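Small RNA was sequenced from 25 mouse brain hemispheres with the TruSeq small RNA kit, per the labels' protocols. The authors deposited 1 table of raw read counts per precursor hairpin. SAMtools 1.3.1-9, Trimmomatic 0.36 and bcl2fastq 1.8.4 were used, per the submitters' processing notes. Not given in the sources used here are the aligner, counter, genome build, strand setting and treatment of reads that match several hairpins. Reads carry no molecular identifiers, so intervals cover counting error only.

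Groups are the ages in the labels, and all 25 columns were used. Counts were tested with edgeR 4.0.16 (R 4.3.3): TMM scaling (factors 0.9524 to 1.038), filterByExpr by age (425 of 1193 precursors kept, 768 set aside), 1 quasi-likelihood fit over all ages without a lane term, and Benjamini-Hochberg adjustment over the 425. Ratios between members were tested by exact permutation of libraries (SciPy 1.17.1) and adjusted over the 3 ratios. Libraries of 1 age differed beyond sampling noise in all 50 pairs (chi-square per degree of freedom 19.6 to 304), so none was treated as a repeat. Replicate numbers follow accession order and pair nothing. Alternatives were other scalings, filters, a lane term, merged copies, DESeq2 1.42.0 and leaving out libraries. The code was tested on simulated counts.

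The members and lists were chosen with earlier results of these data known. By the rule for named precursors, all members were named, with the 3 closest companions of each form by Pearson's r of log2(CPM + 0.5) among precursors of at least 10 CPM, and up to 3 per list by p. Sequences are from RefSeq and 5 of the 6 hairpins and all mature arms matched by name.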

Additional observations from a re-analysis of the deposited data

Results flagged for a closer look

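Of 45 groups of 5 libraries (members, sums and ratios at each age), 2 held a library far from the other 4, by a gap of more than 0.71 of the group's range. Chance alone gives about 1 such group in 20, so 2 of 45 is close to the share from chance. The groups are not independent, since sums and ratios reuse the members' counts. Both flagged libraries were from lane 3. At 30 months mir-181c was 11533 CPM in replicate 5, with the other libraries at 13368 to 13822 CPM and a gap of 0.802 of the range. At 15 months the ratio of mir-181c and mir-181d to miR-181a and miR-181b was 11.24 counts per 100 in replicate 3, with the others at 12.65 to 13.11 and a gap of 0.757 of the range.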

How the results depend on the processing

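Replicate numbers follow accession order and pair no libraries. Lane was the available block, and with lane as a covariate the 4 members called between 2 and 30 months kept their calls, with adjusted p from 7.36e-05 to 0.00195. For 30 against 2 months, both miR-181b copies and mir-181d kept direction and call in all 25 fits that left out 1 library and in 12 other alternatives, with log2 fold changes of 0.293 to 0.364, 0.262 to 0.338 and -0.311 to -0.254 over the former. mir-181c gave -0.259 to -0.166 over those fits, with 3 calls lost, and -0.17 (adjusted p = 0.0852) without the filter on low counts, which tests more precursors. The near-zero value of mir-181a-1 turned to -0.0103 and that of mir-181a-2 to -0.00719 under upper-quartile scaling. With 1 library left out, mir-181a-1 ranged from -0.0017 to 0.0587, and the slopes on age per 12 months from -0.00538 to 0.0234 (also -0.000687 without 9 months replicate 1) for mir-181a-1 and from -0.00434 to 0.0247 for mir-181a-2.

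Between 2 and 9 months, 0 members were called without the filter and 2 with lane as a covariate or without lane 3. The range over left-out libraries was 0 to 1. For the departure from a line, 0 members were called under upper-quartile scaling, without the filter or without lane 3, and 2 with lane as a covariate, with 0 to 3 over left-out libraries. The ratio of mir-181c and mir-181d to the other members ranged from -0.3 to -0.208 with 1 library left out, and 7 of 10 such fits lost the call. Apart from scaling and filter, the cause of these changes was not tested. Every member had at least 3538 counts in every library.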
